A study of Mus musculus with 4 samples.

Results

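The genes described are 31 mouse genes of glucose uptake, glycolysis, lactate handling, pyruvate entry into the mitochondrion and the pentose phosphate pathway, listed by gene symbol. Of the 31, 27 had a probe set under their symbol alone in the platform annotation, among 19505 named genes in all. Gpi1, Eno1, G6pdx and Tkt were not analysed here. Each gene was read from 1 probe set, the brightest over the arrays where a gene had several. The arrays came from mouse T cells cultured under a Tc9 cytokine condition (2 arrays) or a Tc1 cytokine condition (2 arrays), and the titles number both groups 1 and 2. Tc9 is the usual name of CD8 T cells polarised to produce interleukin 9, and Tc1 that of CD8 T cells polarised to produce interferon gamma. The question of the study was how gene expression differs between them. The sources used here do not state the mouse strain, the cytokines, the culture time or whether the replicates were separate cultures, so p-values measure only the spread between these arrays, which may be technical.

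T cells that have been activated take up glucose quickly and turn much of it into lactate even when oxygen is present, which is called aerobic glycolysis. Glycolysis splits glucose into pyruvate through a preparatory chain, from hexokinase to triose phosphate isomerase, and a later chain that yields ATP, from Gapdh to pyruvate kinase. The pentose phosphate pathway draws on the glucose phosphate made by hexokinase and gives NADPH and ribose phosphate for nucleotides. The transcription factors Myc and HIF-1 are known to raise many of these genes.

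Genes of the Tc1 program were lower in Tc9 cells, with 2 arrays in each group. Gzmb (granzyme B) measured 466 and 472 in Tc9 cells, against 6787 and 7002 in Tc1 cells (log2 change -3.83 ± 0.12, SE; limma adjusted p = 0.000108), and Tbx21 (T-bet) and Ifng (interferon gamma) fell by 1.83 and 0.97 on the log2 scale (adjusted p = 0.0165 and 0.0275), with Tbx21 not above the background limit on Tc9 array 2. The background limit is the 95th percentile of each array's negative control probe sets. Those 2 calls ended on the deposited values (limma adjusted p = 1.00 and 1.00) and without the intensity trend (0.0626 and 0.140). Il9 measured 104 and 81.6 in Tc9 cells, against 23.4 and 26.5 in Tc1 cells, under the background limit on all 4 arrays. Cd3d, Cd3e, Cd3g, Cd8a, Cd8b1, Thy1, Cd2 and Cd5 lay above that limit on all 4 arrays. Of 13 markers of CD4 T, B, NK, myeloid and erythroid cells, 12 lay below it on all 4 and the other (Cd79b) on 3. Their summed signal was 506 and 566 in Tc9 cells, against 445 and 487 in Tc1 cells, and their part in the results was not tested. Deposited medians over the named probe sets were 51.7 and 79.9 on the Tc9 arrays numbered 1 and 2, against 49.8 and 79.7 on the Tc1 arrays. Values are therefore given after quantile normalization, as linear intensities in the order array 1, array 2, and each change is Tc9 minus Tc1 on the log2(intensity + 16) scale. On it, changes of dim genes come out too small.

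From glucose entry to lactate export, 16 of the 20 measured genes lay above the background limit on all 4 arrays, and all 16 had a negative change in Tc9 cells, though Hk1, Aldoa, Gapdh or Eno3 turned positive when 1 array was left out. Of the 5 measured pentose phosphate genes 4 had a positive change, of which Pgd turned negative on the deposited values and with median centring. Pgls, Pgd or Rpe turned negative when 1 array was left out. No single gene of the 27 passed the test over all genes. Of the 27, 22 had a negative and 5 a positive log2 change, with a median of -0.20 (range -0.67 to 0.25), beside a median of -0.003 over all 19505 genes, of which 50.8% were negative. The median of the 27 was -0.065 without Tc9 array 2 and -0.13 without Tc1 array 1. By limma with Benjamini-Hochberg adjustment over all genes, 0 of the 27 passed an adjusted p of 0.05, where 112 of all genes (0.574%) did, 77 (0.395%) higher and 35 (0.179%) lower in Tc9. As deposited, without normalization, these were 13 and 3. At an unadjusted p under 0.05, 3 of the 27 were lower (Hk2, Pfkp and Tpi1), against 2.38% of all genes, and 0 were higher, against 2.96%. Both Tc9 arrays lay below both Tc1 arrays for 13 of the 27, against 15.2% of all genes, and both lay above for 0, against 14% of all genes. Within both numbers, 20 of the 27 were lower in Tc9, against 32% of all genes, and 3 were higher, against 30.1%. The other 4 were neither. A fit with the number of the titles as a block called 14 of the 27 lower, against 7.56% of all genes, and 0 higher, against 6.4%. Nothing in the labels says that the numbers pair the arrays.

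Dim genes need to be set apart. Pfkm, Aldoc and Ldhb were under the background limit on all 4 arrays, so no change can be read from them, and Slc16a3 was under it on 1 Tc9 array. The other 23 lay above it on all 4 arrays. Among the genes of the array that did so (6354), the median change was -0.022, both Tc9 arrays lay below both Tc1 arrays for 20%, and 41.1% were lower within both numbers. For the 23 these were a median of -0.20, 11 genes and 17 genes. By limma 1.05% of the 6354 were called, and 0 of the 23. Of the 23, 19 had a negative change. The 4 positive ones (Pgls, Pgd, Taldo1 and Rpe) all belong to the pentose phosphate pathway. Pgd turned negative on the deposited values and with median centring, and Pgls, Pgd or Rpe when 1 array was left out. These counts describe the genes that passed a filter on signal and are not a test of the list.

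**Figure D1:**
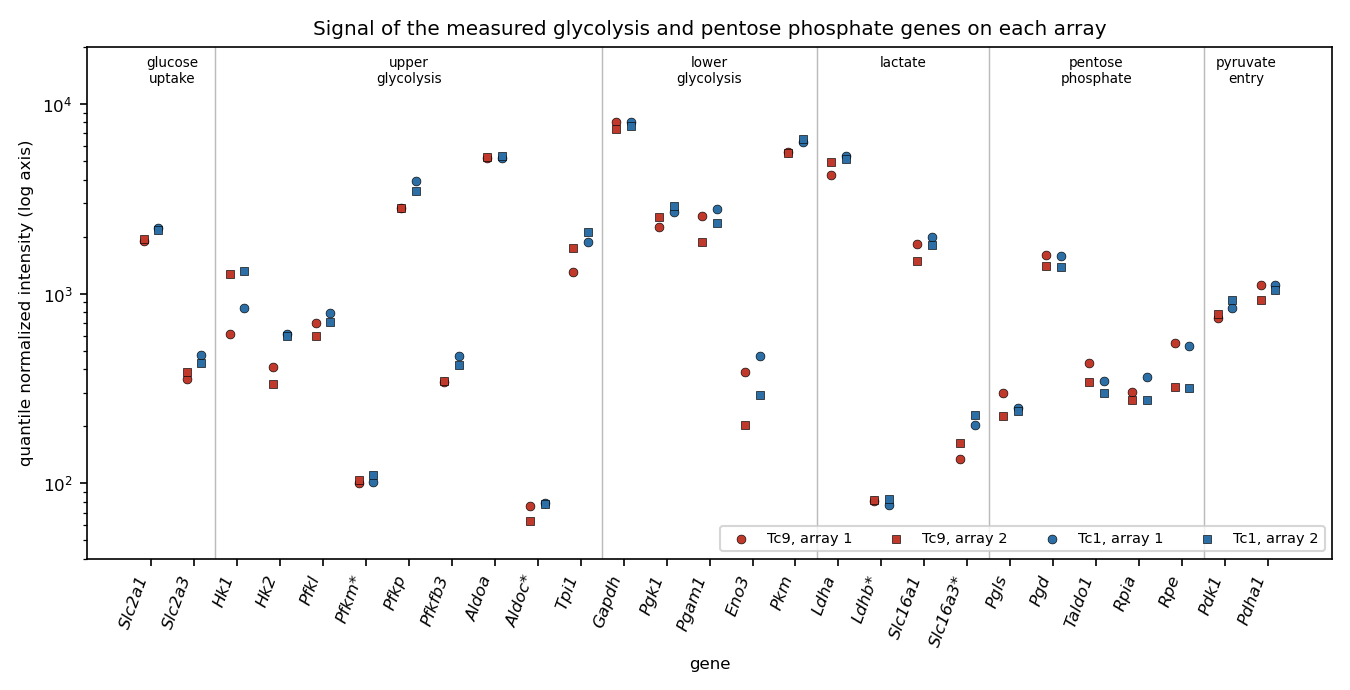
Quantile normalized intensity (vertical log axis) of the 27 measured genes on each array, grouped by role, with Tc9 arrays in red and Tc1 arrays in blue, circles for arrays numbered 1 and squares for those numbered 2. An asterisk marks the 4 genes under the background limit on at least 1 array. Red points sit a little below blue ones for most genes from Slc2a1 to Slc16a3, and Hk1, Eno3 and Rpe split by number more than by cell type.

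Both glucose transporters had lower signal on both Tc9 arrays. Slc2a1 encodes GLUT1, the main glucose transporter of activated T cells, and measured 1897 and 1932 in Tc9 cells, against 2233 and 2173 in Tc1 cells (log2 change -0.20 ± 0.12, SE; limma adjusted p = 1.00). Slc2a3 encodes GLUT3, a transporter of high affinity, and measured 353 and 386 in Tc9 cells, against 475 and 430.2 in Tc1 cells (-0.28 ± 0.17). The groups did not overlap for either gene, but neither change passed the test. Within the numbers the changes were -0.23 and -0.17 for Slc2a1 and -0.41 and -0.15 for Slc2a3.

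In the preparatory chain, Hk2 differed most. Hk2 encodes hexokinase 2, the inducible enzyme that traps glucose in the cell as a phosphate, and measured 413 and 335 in Tc9 cells, against 611 and 596 in Tc1 cells. Both Tc9 values lay well below both Tc1 values. The log2 change was -0.67 ± 0.17 (1.6-fold lower in Tc9; -0.55 and -0.80 within the numbers) and the limma adjusted p was 0.286. Among all genes 1.08% had a log2 change as low or lower. Hk1, the hexokinase that most tissues hold, measured 614 and 1273 in Tc9 cells, against 839.7 and 1319.7 in Tc1 cells. The arrays numbered 2 read higher than those numbered 1 in both cell types, by 0.84 on the log2 scale, against a change of -0.25 ± 0.35 between the cell types. Within the numbers the change of Hk1 was -0.44 and -0.052. Without Tc9 array 1 it was 0.27 and without Tc1 array 2 it was 0.074. Leaving out 1 array makes the numbers unequal between the cell types, so these values also take in the difference between the numbers.

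Phosphofructokinase commits sugar to glycolysis and is built from the subunits Pfkl, Pfkm and Pfkp. Pfkp measured 2819 and 2834 in Tc9 cells, against 3914 and 3464 in Tc1 cells. The Tc9 values were nearly equal to each other and below both Tc1 values, with a log2 change of -0.38 ± 0.12 (limma adjusted p = 0.514; -0.47 and -0.29 within the numbers). Pfkl measured 703 and 600.3 in Tc9 cells, against 795 and 712 in Tc1 cells, a change of -0.21 ± 0.16 with the lower Tc1 value close to the higher Tc9 value. Pfkfb3, whose product makes the sugar phosphate that activates phosphofructokinase, measured 343 and 348 in Tc9 cells, against 469 and 419 in Tc1 cells. It was lower on both Tc9 arrays (-0.35 ± 0.16, limma adjusted p = 1.00). The third subunit gene, Pfkm, measured 101 and 104 in Tc9 cells, against 102 and 111 in Tc1 cells, under the background limit throughout.

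Aldolase splits the sugar into triose phosphates. Aldoa, the main form in most cells, measured 5178 and 5255 in Tc9 cells, against 5178 and 5321 in Tc1 cells, so the groups overlapped (-0.009 ± 0.10). Aldoc, a form best known from brain, measured 75.4 and 63.3 in Tc9 cells, against 78.2 and 78.0 in Tc1 cells and was under the background limit on all arrays. Tpi1, which interconverts the triose phosphates, measured 1297 and 1736 in Tc9 cells, against 1880.4 and 2106 in Tc1 cells. Both Tc9 values were lower, with a log2 change of -0.40 ± 0.17 (limma adjusted p = 0.92; -0.53 and -0.28 within the numbers).

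In the chain that yields ATP, each gene measured had a negative change in the fit over all 4 arrays and 0 passed the test. Gapdh, the enzyme that makes NADH from triose phosphate and a common reference gene, measured 8058 and 7381 in Tc9 cells, against 8019.9 and 7649 in Tc1 cells. The groups overlapped and the log2 change was -0.022 ± 0.11, which turned to 0.012 without Tc1 array 1 and 0.041 without Tc9 array 2. Pgk1, the first enzyme of glycolysis to make ATP, measured 2251 and 2547 in Tc9 cells, against 2696 and 2892 in Tc1 cells (-0.22 ± 0.12), with both Tc9 values lower. Pkm, pyruvate kinase, the last step to pyruvate, measured 5603 and 5516 in Tc9 cells, against 6346 and 6517 in Tc1 cells (-0.21 ± 0.10, SE). Its groups did not overlap, and the limma adjusted p was 1.00.

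Pgam1, phosphoglycerate mutase, measured 2559.7 and 1884 in Tc9 cells, against 2812 and 2368 in Tc1 cells, with overlapping groups but a lower Tc9 value within each number (-0.13 and -0.33). Eno3, an enolase best known from muscle, measured 388 and 203 in Tc9 cells, against 467 and 291 in Tc1 cells. As with Hk1, its arrays differed by number, by -0.77 for number 2 minus number 1, against -0.37 ± 0.34 between the cell types. The change was -0.26 and -0.49 within the numbers and 0.068 without Tc9 array 2. Of the 14 measured genes of glycolysis proper, from Hk1 to Pkm, 12 lay above the background limit on all 4 arrays. All 12 had a negative change, against 54.4% of the 6354 genes above that limit, with a median of -0.24, and 10 were negative within both numbers, against 41.1%. Under median centring and on the deposited values the 12 stayed negative, whereas leaving out 1 array turned Hk1, Aldoa, Gapdh or Eno3. Gapdh and several other glycolytic genes have processed pseudogenes in the mouse genome, and sharing of signal with those was not examined.

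Of the 3 lactate genes above the background limit on some array, each had a negative change. Ldha, the lactate dehydrogenase subunit that favours lactate production, measured 4208 and 4924 in Tc9 cells, against 5340.5 and 5141 in Tc1 cells (-0.20 ± 0.12, limma adjusted p = 1.00). The groups did not overlap, but the difference was mostly on the arrays numbered 1 (-0.34 and -0.062 within the numbers). Ldhb, the subunit that favours pyruvate, was under the background limit on all arrays, at 80.2 and 81.7 in Tc9 cells, against 76.9 and 82.8 in Tc1 cells. Slc16a3 encodes MCT4, a lactate exporter of glycolytic cells, and measured 134 and 163 in Tc9 cells, against 203 and 229.7 in Tc1 cells. It had the most negative change after Hk2, at -0.50 ± 0.21 (limma adjusted p = 0.951; -0.54 and -0.45 within the numbers), with 1 of the Tc9 arrays not above the background limit. Slc16a1, encoding the lactate and pyruvate transporter MCT1, measured 1828 and 1478 in Tc9 cells, against 1981 and 1806 in Tc1 cells (-0.20 ± 0.15), with groups that overlapped slightly.

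**Figure D2:**
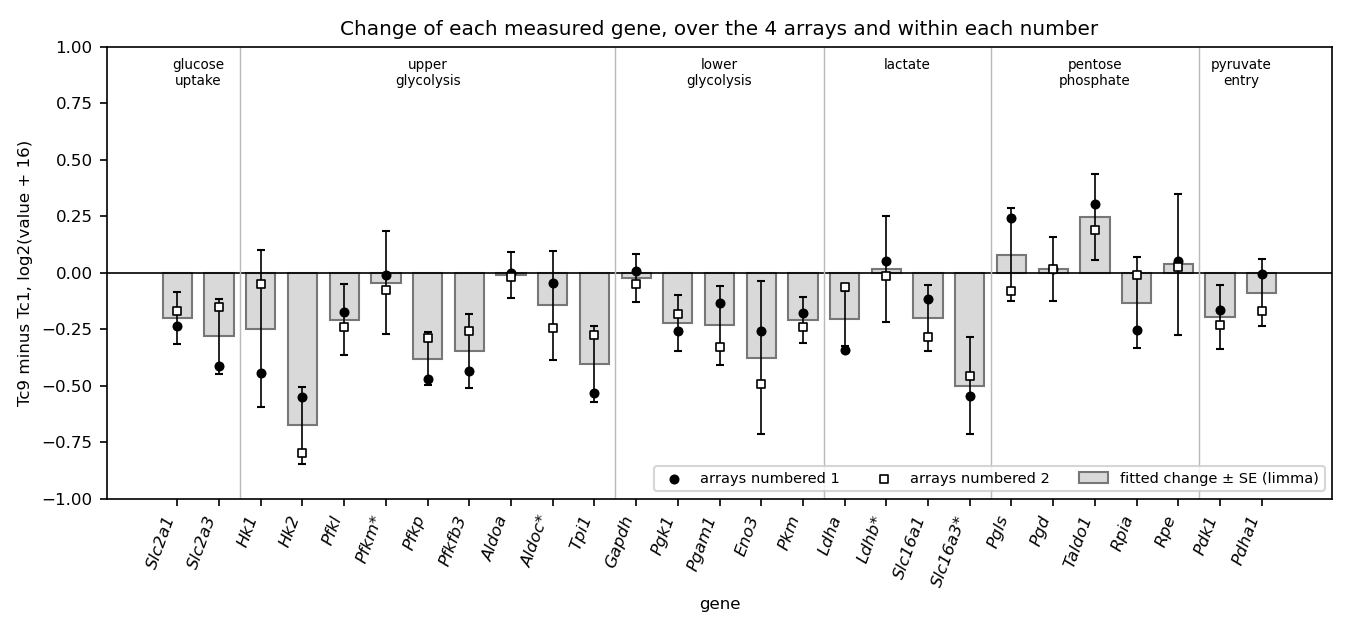
Change of each measured gene, Tc9 minus Tc1 on the log2(intensity + 16) scale (vertical axis), with bars for the fit over the 4 arrays, whiskers for its SE, filled circles for the arrays numbered 1 and open squares for those numbered 2. Bars reach from -0.67 for Hk2 to 0.25 for Taldo1, and those from Slc2a1 to Slc16a3 lie below 0 with the exception of Ldhb. Of the 5 pentose phosphate bars, 4 lie above 0 (Pgd turns negative with median centring or no normalization). With 1 array left out some signs turn, those of Pgls, Pgd and Rpe among them. An asterisk marks a gene under the background limit on at least 1 array.

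At the entry of pyruvate into the mitochondrion, Pdk1 encodes a kinase that switches pyruvate dehydrogenase off and measured 744 and 785 in Tc9 cells, against 835 and 923 in Tc1 cells (-0.20 ± 0.14; -0.16 and -0.23 within the numbers). Both Tc9 values were lower. Pdha1, the catalytic subunit of that dehydrogenase, measured 1106 and 926 in Tc9 cells, against 1112 and 1044 in Tc1 cells (-0.088 ± 0.15), with groups that overlapped.

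The 5 measured pentose phosphate genes had a median change of 0.038, with 4 positive and 1 negative, and the groups overlapped for all 5. Taldo1, transaldolase of the branch that rebuilds sugars, measured 429 and 342 in Tc9 cells, against 344 and 298 in Tc1 cells. Within each number the Tc9 value was higher (0.30 and 0.19), and the change was 0.25 ± 0.19 (limma adjusted p = 1.00). Pgd, which makes NADPH in the oxidative branch, measured 1602 and 1392 in Tc9 cells, against 1585 and 1375 in Tc1 cells. Its change of 0.017 ± 0.14 became -0.032 with the values as deposited and -0.054 with median centring, so no direction can be given. Pgls, the lactonase that precedes it, measured 298 and 226 in Tc9 cells, against 249.98 and 240.0 in Tc1 cells and differed in sign between the numbers (0.24 and -0.08).

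Rpia, the isomerase that makes ribose phosphate, measured 304 and 274 in Tc9 cells, against 365 and 276 in Tc1 cells (-0.13 ± 0.20). Its change was almost entirely on the arrays numbered 1 (-0.25 and -0.011 within the numbers). Rpe, the epimerase beside it, measured 547 and 323 in Tc9 cells, against 527 and 317 in Tc1 cells. It differed by number (-0.72, number 2 minus number 1) and hardly by cell type (0.038 ± 0.31). The difference between the pentose phosphate genes and the other genes was not tested, and with adjusted p-values of 1.00 these 5 genes are not shown to be unchanged.

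**Figure D3:**
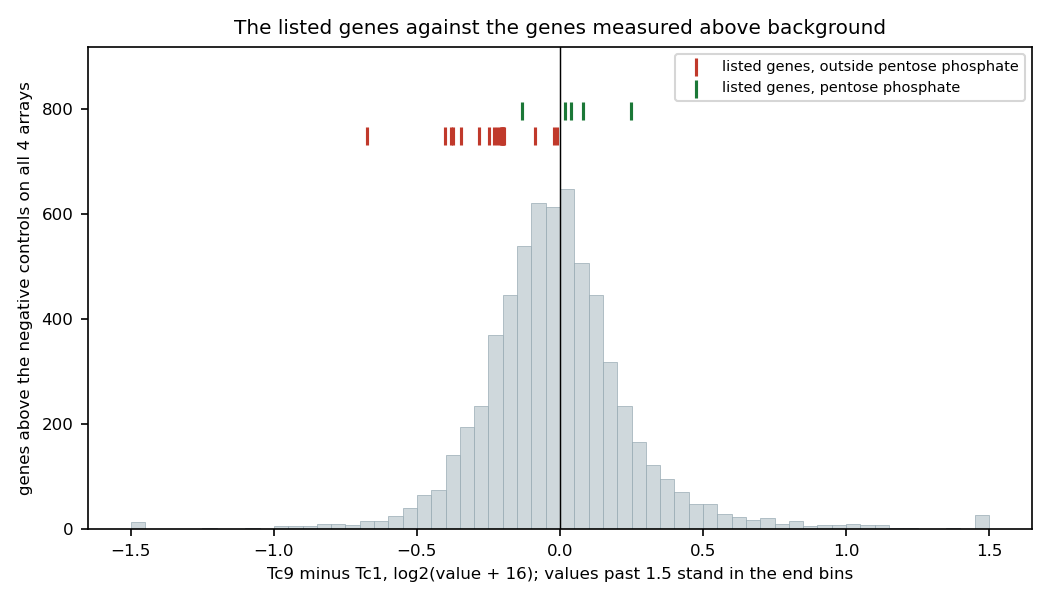
Histogram of the change (horizontal axis, Tc9 minus Tc1, log2 scale) of the 6354 genes above the background limit on all 4 arrays, with the 23 listed genes that also are as ticks above it. The 18 red ticks, for genes outside the pentose phosphate pathway, all lie below 0, with Hk2 farthest to the left at -0.67, and the 5 green ticks, for pentose phosphate genes, lie on both sides of 0.

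Promoters are shown for Hk2, Tpi1, Pfkp and Eno3, the 4 genes with the most negative change among those above the background limit on all 4 arrays, because HIF-1 and Myc act on glycolytic genes through short promoter elements. The windows run from 250 bases before to 50 after each RefSeq start in GRCm38.p6, and capitals mark ACGTG or GCGTG, the core of the HIF-binding element, on either strand (CACGT or CACGC on the printed strand). They are chr6:82774405-82774704 on the minus strand for Hk2, chr6:124814109-124814408 on the minus strand for Tpi1, chr13:6648722-6649021 on the minus strand for Pfkp and chr11:70656926-70657225 on the plus strand for Eno3, all printed 5′ to 3′.
Hk2: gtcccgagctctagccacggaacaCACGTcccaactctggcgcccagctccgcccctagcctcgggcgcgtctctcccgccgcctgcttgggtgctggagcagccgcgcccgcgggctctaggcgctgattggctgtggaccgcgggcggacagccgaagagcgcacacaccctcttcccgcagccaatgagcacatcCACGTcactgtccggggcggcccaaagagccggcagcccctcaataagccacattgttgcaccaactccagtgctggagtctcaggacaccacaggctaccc
Tpi1: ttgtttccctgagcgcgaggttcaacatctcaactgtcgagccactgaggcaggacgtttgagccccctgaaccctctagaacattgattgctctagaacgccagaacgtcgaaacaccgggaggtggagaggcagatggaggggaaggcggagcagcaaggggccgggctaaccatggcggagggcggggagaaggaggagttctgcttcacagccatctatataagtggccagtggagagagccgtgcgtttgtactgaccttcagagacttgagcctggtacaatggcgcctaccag
Pfkp: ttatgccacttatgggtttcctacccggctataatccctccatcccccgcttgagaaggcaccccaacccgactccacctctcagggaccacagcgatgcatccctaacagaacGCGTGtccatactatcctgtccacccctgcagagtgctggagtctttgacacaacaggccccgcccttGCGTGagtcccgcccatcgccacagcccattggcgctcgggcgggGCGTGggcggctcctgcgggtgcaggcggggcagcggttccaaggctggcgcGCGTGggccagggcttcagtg
Eno3: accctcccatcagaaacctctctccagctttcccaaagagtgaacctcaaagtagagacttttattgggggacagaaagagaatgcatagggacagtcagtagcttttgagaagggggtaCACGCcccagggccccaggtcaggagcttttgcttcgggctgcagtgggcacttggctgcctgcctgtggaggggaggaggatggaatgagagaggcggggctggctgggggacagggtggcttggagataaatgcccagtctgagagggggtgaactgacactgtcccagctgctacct
The core occurred 2 times in the Hk2 window, 4 times in that of Pfkp, 1 time in that of Eno3 and 0 times in that of Tpi1. RefSeq windows were found for 30 of the 31 genes, all but Slc2a3, 44 windows in all since some genes have several starts. Of the 44, 35 (79.5%) held the core, beside 43.8% of all 32851 windows in the table. But the mean GC content was also higher, at 60.4% against 53.8%, and its part in the count was not tested. For the measured genes alone it was 30 of 38 windows (78.9%). Among the genes with a positive change, the only windows of Taldo1 and Pgls and 1 of the 2 of Pgd held the core, and that of Rpe did not. Whether the core goes with the change was not tested. CACGTG, the E-box that Myc can bind, which itself contains the HIF core, stood in 4 of the 44 windows (9.09%) and in 7.15% of all windows. A match of these letters is a description of the sequence and does not show binding.

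Neighbouring genes were read from lists of the pathways that join glycolysis. Of 22 genes of the branches to serine, glycerol, hexosamine and ribose phosphate, 1 rose and 0 fell, against 0.395% and 0.179% of all genes. The median of the 22 was -0.091. With the replicate block 1 rose and 5 fell, against 6.4% and 7.56% of all genes. The gene that rose was Prps1, which turns the ribose phosphate of the pentose phosphate pathway into the precursor of nucleotides. It measured 3622 and 3224 in Tc9 cells, against 1930.4 and 1672 in Tc1 cells, with no overlap, a change of 0.92 ± 0.13 (SE; 0.90 and 0.94 within the numbers) and a limma adjusted p of 0.0412. This call did not hold on the deposited values (limma adjusted p = 1.00), with median centring (0.0565), with a pseudocount of 64 (0.0529) and without the intensity trend (0.166), and its direction was the same in each. In the serine branch, Psat1, an aminotransferase of serine synthesis, measured 2793 and 2627 in Tc9 cells, against 3747 and 3345 in Tc1 cells (-0.38 ± 0.12). Shmt1, which passes carbon from serine to folate, measured 809 and 792 in Tc9 cells, against 1202 and 1018 in Tc1 cells (-0.46 ± 0.15). Both had lower values on both Tc9 arrays and adjusted p-values of 0.514 and 0.543 by limma.

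Of 21 genes of Myc, mTORC1 and AMPK control, 1 rose, against 0.395% of all genes, and 0 fell, with a median of 0.056. With the replicate block 4 rose (Mxd4, Txnip, Rptor and Max) and 2 fell (Eif4ebp1 and Myc), against 6.4% and 7.56% of all genes. The gene that rose without the block was Mxd4, an antagonist of Myc. It measured 559.9 and 395 in Tc9 cells, against 121 and 109 in Tc1 cells. Both Tc1 values lay under the background limit, so the Tc9 mean of Mxd4 was at least 2.52-fold higher on these arrays (limma adjusted p = 0.0174). This bound takes in no spread between arrays. It sets the Tc9 mean against the lowest signal above the background limit on each Tc1 array, or the gene's own value where higher. Its call did not hold on the deposited values (limma adjusted p = 1.00) and without the intensity trend (0.0578). Myc itself measured 8019.9 and 7176 in Tc9 cells, against 9456 and 8169 in Tc1 cells (-0.21 ± 0.12, limma adjusted p = 1.00; -0.24 and -0.19 within the numbers). Txnip, which restrains glucose uptake, measured 969 and 858 in Tc9 cells, against 689.5 and 595 in Tc1 cells (0.50 ± 0.15, limma adjusted p = 0.508), with both Tc9 values higher.

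Of 21 genes of the HIF-1 pathway and of HIF targets outside glycolysis, 0 passed limma and the median was -0.022. With the replicate block 2 rose and 3 fell, against 6.4% and 7.56% of all genes. Unadjusted, 1 of the 21 was higher (p under 0.05) and 2 lower, against 2.96% and 2.38% of all genes. Hif1a measured 2029.8 and 1699.8 in Tc9 cells, against 2121 and 1832 in Tc1 cells (-0.085 ± 0.15). Among the targets, Ndrg1 measured 169 and 161 in Tc9 cells, against 346 and 281 in Tc1 cells (-0.86 ± 0.20, limma adjusted p = 0.226). Bnip3l, a mitophagy receptor, measured 863 and 951 in Tc9 cells, against 546 and 553 in Tc1 cells (0.70 ± 0.14, limma adjusted p = 0.153). The groups did not overlap for either, and the signs were opposite.

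Of 15 other genes of pyruvate dehydrogenase, the pyruvate carrier and their control, 0 passed limma. The median of the 15 was -0.059. Both Tc9 arrays lay below both Tc1 arrays for 4 and above for 2, against 15.2% and 14% of all genes. With the replicate block 1 rose and 3 fell, against 6.4% and 7.56% of all genes. Pdp1 and Got1 were among those that fell (-0.65 ± 0.29 and -0.31 ± 0.15), with Pdp1 not above the background limit on 1 Tc9 array. At an unadjusted p under 0.05, 1 was higher and 0 were lower, against 2.96% and 2.38% of all genes. The gene was Pdk2, another kinase that acts on pyruvate dehydrogenase. It measured 289 and 260.5 in Tc9 cells, against 130.2 and 139.9 in Tc1 cells, and did not pass the test (limma adjusted p = 0.167). Both Tc1 values lay under the background limit, and by the same bound its Tc9 mean was at least 1.51-fold higher on these arrays. Of 18 other isoenzymes and sugar transporters, 0 passed and, unadjusted, 1 was higher (p under 0.05) and 0 lower, beside the same shares. With the replicate block 1 rose and 0 fell, against 6.4% and 7.56% of all genes. Of the 18, 15 lay under the background limit on all arrays. The 1 was Slc2a6, a glucose transporter, at 252 and 332 in Tc9 cells, against 134 and 142 in Tc1 cells (limma adjusted p = 0.195). Without Tc9 array 1 it was 0.0331, in a fit where the remaining Tc9 array is assumed to vary like the Tc1 arrays. Both Tc1 values of Slc2a6 lay under that limit, and by the same bound its Tc9 mean was at least 1.58-fold higher on these arrays. Slc2a6 did not pass the test over all arrays.

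Cell division genes are given beside the glycolytic genes because both are known to be high in growing T cells. Of 20 genes of cell division, 17 had a negative and 3 a positive change, with a median of -0.18 (range -0.62 to 0.23). Of the 20, 0 passed limma and 4 were lower at an unadjusted p under 0.05, against 2.38% of all genes. Both Tc9 arrays lay below both Tc1 arrays for 10 and above for 1, against 15.2% and 14% of all genes. With the replicate block 1 rose and 9 fell, Aurkb and Rrm2 among the latter, against 6.4% and 7.56% of all genes. The gene that rose was Mcm6, with a change of 0.23 ± 0.12 and both Tc9 values higher. Pcna, Mcm2, Mcm4 and Mcm5, among the brightest genes of the list, had changes of -0.036, -0.055, -0.028 and -0.052 with overlapping groups. Aurkb, a mitotic kinase, measured 613 and 593 in Tc9 cells, against 939.6 and 927 in Tc1 cells. Rrm2, a ribonucleotide reductase subunit, measured 1132 and 1135 in Tc9 cells, against 1623 and 1674 in Tc1 cells. The groups did not overlap for either gene. How far the proportion of dividing cells moves with the glycolytic signal was not tested, and in bulk RNA fewer such cells and less RNA per cell cannot be told apart.

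**Figure D4:**
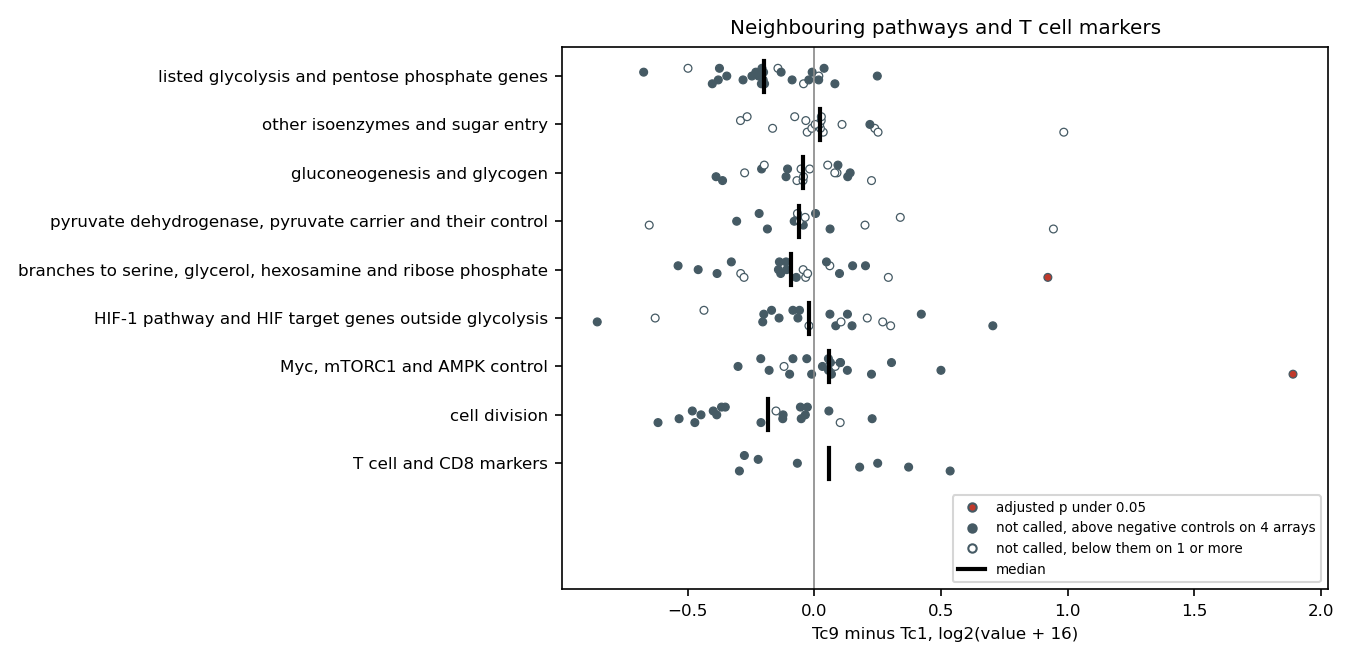
Change of each gene (horizontal axis, Tc9 minus Tc1, log2 scale) in the 27 listed genes, in 7 lists of neighbouring pathways and in T cell markers (rows), with the black bar at the median. The medians are -0.20 for the 27 genes and -0.18 for cell division and lie between -0.091 and 0.056 for the other lists, and the 2 red points that pass the test are Prps1 and Mxd4.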

How the data were processed

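RNA of mouse T cells was measured on 4 Affymetrix arrays, and per the labels' protocols it was taken with Trizol and labelled with biotin. The authors deposited 1 linear intensity for each of 28846 probe sets and array. Their software, background correction and summarization are not stated in the sources used here. Of the probe sets, 6640 were controls and 19572 carried 1 gene symbol in the platform annotation. The other 2634 carried no symbol or more than 1 and are called unnamed here. The named intensities were quantile normalized, 16 was added and log2 was taken. The brightest probe set stood for each of the 55 genes with several, leaving 19505 genes. limma 3.58.1 in R 4.3.3 (lmFit, eBayes with an intensity trend, 2 residual and 5.11 prior degrees of freedom) compared Tc9 with Tc1, with Benjamini-Hochberg adjustment over all genes. Groups and numbers came from the titles. Background was the 95th percentile of 5222 negative control probe sets on each array. The number of arrays limits the precision. The model was tested on simulated data, in which arrays were drawn independently and those with the same number did not deviate together.

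Sequences came from the RefSeq promoter table and figures were drawn in Python 3.11.15. The members and lists were chosen with earlier results of these data known. All members are named, and from each other list at most the 3 genes with the smallest p, Hif1a, Myc, the genes that define the cell types and the T cell markers. Max and Rptor are also named for their block calls, and Mcm6, Pcna, Mcm2, Mcm4 and Mcm5 from the cell division list. Alternatives changed the normalization, pseudocount, variance model, filter on dim genes, probe set choice, replicate block and the arrays included.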

Additional observations from a re-analysis of the deposited data

How the results depend on the processing

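Across all genes, the 112 calls became 16 with the values as deposited and 65 without the intensity trend, and between 185 and 275 when 1 array was left out. Those fits have 1 array in a group, which is assumed to vary like the other group's, and 1 residual degree of freedom, so their p-values and counts say little about stability. Of the 27 genes, 0 passed limma under each of these and under median centring, normalization over unnamed probe sets as well, pseudocounts of 1 and 64, the filter at the 25th percentile and the mean over probe sets. Hk2 had the smallest limma adjusted p of the 27 as reported (0.286). Over the settings without a block the smallest was 0.0619, for Hk1 without Tc9 array 2, where 1 Tc9 array is left and the sign of Hk1 itself turned without Tc9 array 1 or Tc1 array 2. Their median change of -0.20 was -0.23 as deposited, -0.25 with median centring, -0.20 with a pseudocount of 64, and from -0.22 (without Tc1 array 2) to -0.065 (without Tc9 array 2) with 1 array left out. The number of negative changes lay between 19 and 23 in every setting. Some signs turned. Pgd was -0.032 as deposited and -0.054 with median centring. With 1 array left out, ranges that crossed 0 were -0.76 to 0.27 for Hk1, -0.029 to 0.011 for Aldoa, -0.11 to 0.27 for Pgls, -0.085 to 0.12 for Pgd, -0.33 to 0.40 for Rpe, -0.085 to 0.041 for Gapdh, -0.82 to 0.068 for Eno3, -0.21 to 0.038 for Pdha1, -0.027 to 0.061 for Ldhb, -0.32 to 0.060 for Rpia and -0.097 to 0.011 for Pfkm. They were -0.21 to 0.042 for Hif1a and -0.24 to 0.11 for Cd8a. The cause was not tested.

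The titles number the arrays 1 and 2 in both groups. Arrays with the same number deviated together from their group means (r = 0.73 across genes, which are not replicates), but nothing in the labels says what a number stands for. When that number entered the fit as a replicate block, 2724 genes were called, 1249 of them higher and 1475 lower, and of the 27 genes 14 were lower: Slc2a1, Slc2a3, Hk1, Hk2, Pfkp, Pfkfb3, Tpi1, Pgk1, Pgam1, Eno3, Pkm, Ldha, Slc16a1 and Slc16a3. That is beside 7.56% of all genes lower under the block. This fit leaves 1 residual degree of freedom and an infinite prior, so genes of like intensity share a spread. The pentose phosphate genes, Gapdh, Aldoa, Pfkl, Pdk1 and Pdha1 were not called there either. Low signal limits Pfkm, Aldoc and Ldhb.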

Other observations

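Glycogen and gluconeogenic genes were close to even. Of 19 measured genes, 12 had a negative and 7 a positive change, with a median of -0.045. Of the 19, 0 passed limma and 0 had an unadjusted p under 0.05. But 10 of them lay under the background limit on all 4 arrays, so no change can be read from those, and 8 lay above it on all 4. With the replicate block 0 rose and 2 fell, Pgm1 and Gyg, against 6.4% and 7.56% of all genes. Pgm1, which links glycogen to glycolysis, measured 275 and 328 in Tc9 cells, against 384 and 397 in Tc1 cells (-0.36 ± 0.18), and Gyg, the primer protein of glycogen, 208 and 153 in Tc9 cells, against 312 and 182 in Tc1 cells (-0.39 ± 0.29).

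The balance between related genes was compared for 7 pairs as a log2 ratio within each array, which shows unequal change only. For Hk2 over Hk1 the ratio was -0.56 and -1.87 in Tc9 cells, against -0.45 and -1.13 in Tc1 cells. The groups overlapped, and the ratio moved more between the numbers than between the cell types. For Pfkp over Pfkl it was 1.98 and 2.21 in Tc9 cells, against 2.28 and 2.26 in Tc1 cells, without overlap, and the 2-sided exact permutation p was 0.33 (adjusted 0.67), the smallest that 2 against 2 arrays allow. The other 5 pairs had exact p-values of 0.33 or 0.67.

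The difference between arrays numbered 2 and 1 was larger than that between the cell types for 14 of the 27 genes (51.9%). This was so for 63.9% of all genes and for 58.8% of the 6354 above the background limit on all 4 arrays. Among the 27 the difference between the numbers was largest for Hk1 (0.84), Eno3 (-0.77) and Rpe (-0.72).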
